A study of Mus musculus with 3 samples.

Results

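The small leucine-rich proteoglycans (SLRPs) were examined at the level of chromatin: Dcn, Lum, Kera, Epyc, Ogn, Omd, Aspn, Fmod, Prelp and Bgn. A peak of open chromatin was counted as theirs where it touched the gene or the 2000 bp before its start on mm10, and 101 of 506515 called peaks did so. Of these, 35 came from embryonic day (E) 12.5, 26 from E14.5 and 40 from E16.5. Unless said otherwise, sets of 3 values below are in this order of stages. Neighbouring genes were kept apart from genes that stand alone. Epyc, Kera, Lum and Dcn lie side by side on chromosome 10 with 14, 8 and 16 peaks at the 3 stages, Ogn, Omd and Aspn lie side by side on chromosome 13 with 10, 7 and 13, and Fmod, Prelp and Bgn had 11 at each stage.

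Single-nucleus ATAC-seq, in which a transposase cuts accessible DNA, had been performed on tdTomato+ mesenchymal progenitors (MPs) of the mouse forelimb, with 1 library per stage. All embryos were of the C57BL/6J strain and carried Hic1CreERT2/CreERT2;Rosa26LSLtdTomato/tdTomato, and the dams had been given 7.5 mg tamoxifen in 300 uL sunflower oil by gavage at embryonic day 10. The Cre is thus driven from the Hic1 locus, both copies of which carry the insertion, and the label marks cells in which Hic1 was active when tamoxifen was present and their descendants. The tissue was the whole forelimb at the earlier stages and, in the E16.5 library, the stretch from distal stylopod to proximal zeugopod with the elbow joint. Embryos of both sexes were pooled, E12.5 limbs were digested with Dispase and later limbs with Collagenase A, Pronase and DNase, and the sort discarded cells with Ter119, F4/80, CD11b, CD31, CD117 or CD45 on their surface. Stage can therefore not be told apart from library at any step. E12.5 can also not be told apart from its digestion. The same holds for E16.5 and its tissue segment and the pipeline version in the matrix header (1.2.0, where the earlier libraries have 1.0.1).

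SLRPs are secreted proteins with a curved core of leucine-rich repeats, most of which carry chondroitin, dermatan or keratan sulphate chains. They bind collagen fibrils and set how these grow and pack in tendon, dermis, bone, cartilage and cornea, and some of them hold growth factors such as TGF-beta in the matrix. Decorin, biglycan and asporin form class I, lumican, fibromodulin, keratocan, PRELP and osteoadherin class II, and epiphycan and osteoglycin class III.

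To show the DNA that the results below turn on, 8 stretches are printed, each 5′ to 3′ on the strand of its gene, from GRCm38.p6 (RefSeq). The upstream stretches are the 250 bases before a start site, and the intronic ones are the central 240 bases of a called E16.5 peak. Capitals mark any match, on either strand, to 5 motifs. The TATA box was searched as TATAAA. The E-box, bound by basic helix-loop-helix factors, was searched as CANNTG. The core of SOX sites was searched as ACAAAG and that of RUNX sites as TGTGGT. The AP-1 site was searched as TGANTCA. The Fmod, Prelp and second Epyc promoters are shown because they differed between the groups of nuclei described below, and the Bgn promoter for contrast, since Bgn differed in its introns. Of the intronic peaks, those of Bgn and Kera had the highest ratio of an SLRP peak in the chondrogenic and tenogenic groups, and that of Prelp lies in the region with the largest difference between stages. The Epyc one had the lowest chondrogenic ratio among peaks of at least 10 CPM. All were chosen after their values were seen.
Bgn upstream: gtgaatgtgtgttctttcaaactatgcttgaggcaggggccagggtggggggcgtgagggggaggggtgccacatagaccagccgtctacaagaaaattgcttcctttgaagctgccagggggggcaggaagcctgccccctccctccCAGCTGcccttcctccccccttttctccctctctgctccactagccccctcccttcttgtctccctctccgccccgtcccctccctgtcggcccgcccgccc
Fmod upstream: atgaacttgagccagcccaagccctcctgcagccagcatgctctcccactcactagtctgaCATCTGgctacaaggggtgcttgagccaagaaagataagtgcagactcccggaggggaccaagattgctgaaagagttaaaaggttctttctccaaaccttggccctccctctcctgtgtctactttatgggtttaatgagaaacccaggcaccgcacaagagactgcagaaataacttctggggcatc
Prelp upstream: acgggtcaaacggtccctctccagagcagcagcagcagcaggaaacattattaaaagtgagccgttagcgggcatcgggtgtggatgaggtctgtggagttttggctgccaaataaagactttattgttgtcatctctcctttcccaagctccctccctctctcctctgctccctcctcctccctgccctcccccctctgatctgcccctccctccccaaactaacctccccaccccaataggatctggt
Epyc upstream of its second start: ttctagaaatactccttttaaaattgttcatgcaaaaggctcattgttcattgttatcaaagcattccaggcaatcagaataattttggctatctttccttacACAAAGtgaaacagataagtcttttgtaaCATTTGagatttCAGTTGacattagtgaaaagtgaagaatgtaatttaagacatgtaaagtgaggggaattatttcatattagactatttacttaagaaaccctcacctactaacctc
Bgn intronic peak: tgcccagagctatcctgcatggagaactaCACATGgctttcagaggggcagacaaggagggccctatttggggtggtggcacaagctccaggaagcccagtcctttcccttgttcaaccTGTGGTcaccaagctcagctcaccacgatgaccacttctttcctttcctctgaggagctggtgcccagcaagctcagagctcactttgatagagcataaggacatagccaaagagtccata
Epyc intronic peak: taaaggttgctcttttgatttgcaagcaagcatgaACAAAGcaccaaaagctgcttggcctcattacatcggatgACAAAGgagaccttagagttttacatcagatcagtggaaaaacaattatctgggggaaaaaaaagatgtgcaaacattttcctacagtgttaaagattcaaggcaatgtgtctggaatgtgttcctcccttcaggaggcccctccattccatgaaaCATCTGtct
Kera intronic peak: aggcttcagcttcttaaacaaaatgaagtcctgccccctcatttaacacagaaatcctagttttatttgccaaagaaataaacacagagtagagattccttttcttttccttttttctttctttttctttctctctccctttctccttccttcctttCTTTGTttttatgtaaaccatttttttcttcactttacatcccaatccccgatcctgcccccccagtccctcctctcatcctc
Prelp intronic peak: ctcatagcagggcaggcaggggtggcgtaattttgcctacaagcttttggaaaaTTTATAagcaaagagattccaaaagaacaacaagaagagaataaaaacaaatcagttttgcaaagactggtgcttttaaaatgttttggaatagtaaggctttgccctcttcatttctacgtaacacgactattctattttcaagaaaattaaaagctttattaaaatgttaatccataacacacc

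These stretches lie at chrX:73483351-73483600 (Bgn, plus strand), chr1:134037004-134037253 (Fmod, plus), chr1:133921402-133921651 (Prelp, minus) and chr10:97646853-97647102 (Epyc, plus). The intronic ones lie at chrX:73487161-73487400 (Bgn, plus), chr10:97668585-97668824 (Epyc, plus), chr10:97611648-97611887 (Kera, plus) and chr1:133917350-133917589 (Prelp, minus). Promoter windows of 250 bases before to 50 after a start were found for 8 of the 10 genes, as 9 entries with Epyc having 2, and none was found for Lum or Dcn. The median GC content of the 9 was 41% and the median number of CpG was 3, against 52.7% and 7 over 32851 promoters. A TATA box was in 2 of the 9 (those of Aspn and Ogn; 13.6% of all promoters), an E-box in 7 (72.3%), the SOX core in 2 (18.7%), the RUNX core in 2 (16.8%) and the AP-1 site in 0 (7.81%). In the central 240 bases of the 40 E16.5 peaks, an E-box was present in 55% of SLRP peaks and 77% of all 213600 peaks that could be read. The TATA box was in 22.5% against 13.9%, the SOX core in 20% against 18.4%, the AP-1 site in 7.5% against 17.2% and the RUNX core in 12.5% against 18.3%. A match is a description of letters only.

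The libraries held 8294, 20023 and 14048 nuclei with 87048167, 204289151 and 413425059 cut sites, and a median of 6003.5, 8575 and 26694 cut sites per nucleus. From 151 to 401 cell barcodes, 1.82% to 2.85% of the smaller library, occurred in both libraries of a pair. As a check on the label, the loci of Prrx1, Pdgfra and Twist1, which mark limb mesenchyme, together took 277, 350 and 300 fragments per 1000000 (FPM, of all fragments in called peaks), and each had a peak in every library. The loci of other cell types were also open at a lower sum, with 48.6 to 103 FPM for 4 myogenic, 104 to 129 for 4 endothelial, 50.8 to 86.8 for 4 epithelial and 38.7 to 62.9 for 3 blood loci. Of these, Myf5, Krt5 and Csf1r had no peak in the E14.5 library. The part of such cells in the values below was not tested. As no stage had a replicate, no test was made and no p-value is given, and all intervals are exact Poisson or binomial 95% intervals that cover counting error only.

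Every SLRP gene had at least 1 peak at every stage, as did 80.6%, 75.9% and 81.4% of 21701 protein-coding genes. A peak over the promoter (from 1000 bp before a start to 100 bp past it) was present for 10, 9 and 10 of the 10, against 71.9%, 68.1% and 73.2% of genes. The exception was Epyc at E14.5, where the peak nearest to its second start fell in the exon after it. SLRP peaks were opened in more nuclei than the typical peak, with medians of 1.30%, 3.25% and 4.86% of nuclei against 0.928%, 2.09% and 2.46% for all peaks. They were also wider, with medians of 632, 846 and 1012 bp against 558, 575 and 606 bp. Regions with a peak in every library held 24 of 35, 26 of 26 and 21 of 40 SLRP peaks, where the shares of all peaks were 47.1%, 89.3% and 40.6%. At E16.5, 12 of 40 SLRP peaks had no counterpart in either earlier library, where 34.3% of all peaks had none, and 4 of 35 at E12.5 had none in either later library, where 27.3% had none.

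To compare stages, the cut sites of each gene's peaks in regions shared by all 3 libraries were summed per 1000000 cut sites in autosomal shared regions (CPM). In these sums, fewer open nuclei and fewer cuts per open nucleus cannot be told apart. By these sums the 10 genes stood above 5.72% to 43.8% of genes at E12.5 and above 9.24% to 34.6% at E14.5. At E16.5 they ran from 8.01% (Kera) to 54.2% (Omd), with Prelp at 82.6% in a sum that includes the Optc promoter. The median gene had 38.4, 44.6 and 38.9 CPM. Although their single peaks were opened in more nuclei than the typical peak, the genes were thus below the median gene at E12.5 and E14.5. From E12.5 to E16.5 the accessibility of Prelp, Aspn, Dcn, Epyc and Omd was at least 1.5-fold higher, that of Bgn lay between, and Lum, Kera, Ogn and Fmod were at most 1.11-fold higher. Thus 5 of 10 were 1.5-fold higher, where 7.34% of 16395 genes were, and 0 were 1.5-fold lower, where 8.64% of genes were. The median log2 ratio was 0.57 for the 10 and 0.0048 for all genes, and 10 of 10 lay above 0 beside 50.6% of genes. The intervals of Lum, Kera and Fmod included 0. Scaled by the counts in all peaks, 8 of 10 lay above 0, and with all own peaks or with promoter peaks 9 of 10 did. Per kb of called width the picture was different. The median was then -0.10 (log2) for the SLRP genes and -0.19 for all genes, with 4 of 10 above 0, and Epyc and Dcn turned to -0.24 and -0.05. Aspn was at 0.004 and Omd at 0.055 per kb, and Fmod, at -0.59, was 1.5-fold lower. Prelp was at 0.80, but this sets unlike stretches side by side, since the promoter of its neighbour Optc is counted whole only at E16.5. Over the same regions Prelp was at 0.17 per kb, and at 0.47 without the Optc promoter, so none of the 5 calls was kept per kb over the same regions. With peaks of matched position, Epyc (0.20) and Omd (0.34) were no longer past 1.5-fold, and Dcn and Aspn had no such peak. Peaks called wider at E16.5 thus moved with the higher sums, and their part in them was not tested.

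**Figure D1:**
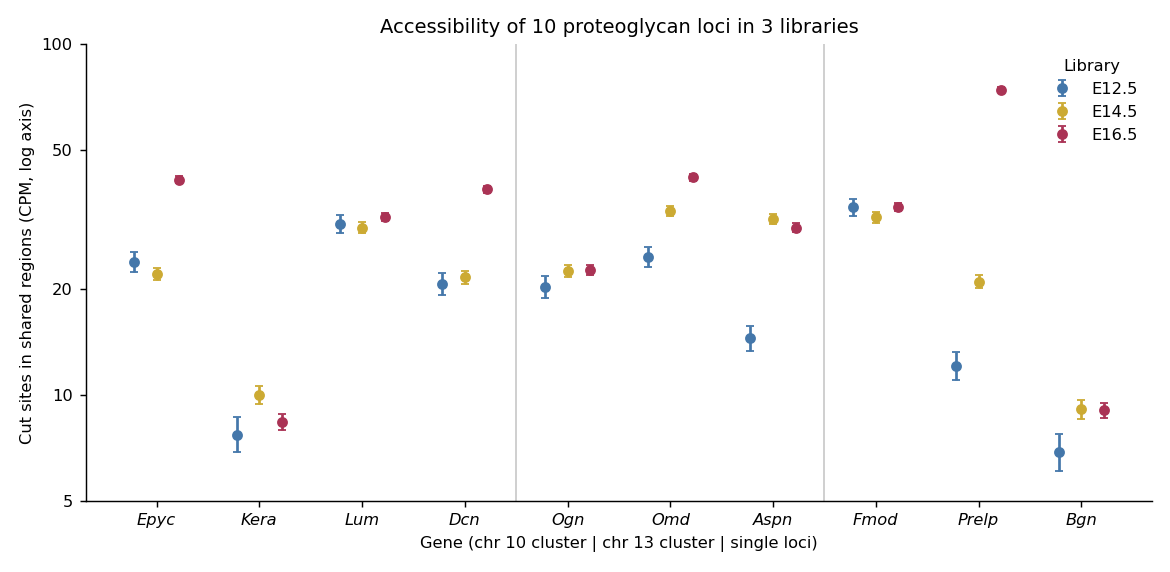
Accessibility of each proteoglycan locus in CPM (y axis, log scale) in the 3 libraries, 1 per stage, with bars for the 95% Poisson interval. Prelp has 12.1, 21.1 and 74.1 CPM, sums in which only the E16.5 library holds the whole Optc promoter (31.1, 50.7 and 74.1 over the same regions), while Lum stays between 30.0 and 32.2 and Fmod between 32.1 and 34.4.

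The cluster on chromosome 10 spans chr10:97477609-97682454. Dcn (ENSMUSG00000019929.16, chr10:97479609-97518143), which encodes decorin, a binder of type I collagen and TGF-beta, had a CPM of 20.8 (19.3 to 22.3), 21.7 (20.8 to 22.6) and 38.6 (37.6 to 39.5). Its level was the same at the first 2 stages within these intervals, and the log2 ratio of E16.5 over E12.5 was 0.89 (0.79 to 1.0). All of the shared signal came from the promoter peak, which was 2478, 2061 and 4763 bp wide and open in 7.31%, 9.63% and 31.1% of nuclei. Epyc (ENSMUSG00000019936.10, chr10:97644068-97682454) encodes epiphycan, a proteoglycan of growth-plate cartilage, and had 23.9 (22.4 to 25.5), 22.1 (21.2 to 23.0) and 41.1 (40.1 to 42.1) CPM. Its E16.5 level also lay above both earlier ones, with a log2 ratio to E12.5 of 0.78 (0.68 to 0.88). The higher level was uneven along the gene. A region over the second start and the following exon (chr10:97646263-97649024) had 2.77, 1.55 and 7.80 CPM, and the next one (chr10:97649568-97651727) 3.16, 4.80 and 11.4. The strongest Epyc region, in an intron at chr10:97668158-97669252, moved far less, with 15.3, 13.7 and 17.6 CPM.

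Lum (ENSMUSG00000036446.5, chr10:97565128-97572703) encodes lumican, a keratan sulphate proteoglycan of cornea and dermis. Its CPM was 30.7 (28.9 to 32.5), 30.0 (28.9 to 31.1) and 32.2 (31.4 to 33.1), all from the promoter peak, and the interval of its log2 ratio from E12.5 to E16.5 (-0.02 to 0.16) included 0. Kera (ENSMUSG00000019932.8, chr10:97606879-97613692), for keratocan of cornea and tendon, had a CPM of 7.71 (6.87 to 8.64), 10.0 (9.43 to 10.6) and 8.38 (7.96 to 8.82). In these shared regions Kera was highest at E14.5, and its intervals at E12.5 and E16.5 overlapped, but with all of its own peaks it had 9.85, 10.0 and 10.1 CPM. The share of the whole chromosome 10 cluster's counts that lay between the reaches of its 4 genes was 44.9%, 47.2% and 49.0%.

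The cluster on chromosome 13 spans chr13:49542443-49624501 and lies inside introns of Cenpp, a kinetochore gene read from the other strand, to which the same peaks also belong by position. Aspn (ENSMUSG00000021388.14, chr13:49544443-49567565), for asporin, a class I protein with a run of aspartates, had 14.5 (13.3 to 15.8), 31.8 (30.7 to 32.9) and 30.0 (29.2 to 30.9) CPM. The log2 ratio of E14.5 over E12.5 was 1.13 (1.0 to 1.26) and that of E16.5 over E14.5 -0.08 (-0.15 to -0.02). The latter ran from -0.71 per kb of called width, -0.34 scaled by all peaks and -0.28 with binarised counts to 0.14 with 10000 bp upstream, 0.49 with all own peaks and 1.27 with promoter peaks. That last value sets a merged peak of 4566 bp at E16.5 against 895 bp at E14.5, so the direction for Aspn after E14.5 depends on how its peaks are summed. Omd (ENSMUSG00000048368.9, chr13:49582462-49592822), for osteoadherin of bone matrix, had 24.8 (23.2 to 26.4), 33.4 (32.3 to 34.5) and 41.8 (40.8 to 42.8) CPM. Its sum was higher at each later stage, but E16.5 over E14.5 moved from 0.32 (log2) to 0.07 scaled by all peaks and -0.43 per kb, and E14.5 over E12.5 from 0.43 to 0.10 with peaks of matched position. An intronic region (chr13:49583787-49586566) took 6.76, 14.1 and 19.0 CPM, whereas the promoter region took 18.0, 19.3 and 22.8. Ogn (ENSMUSG00000021390.6, chr13:49608046-49624501), for osteoglycin, a binder of collagen fibrils, had 20.4 (18.9 to 21.9), 22.6 (21.7 to 23.5) and 22.7 (22.0 to 23.4) CPM and was thus nearly level.

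Of the genes that stand alone, Prelp (ENSMUSG00000041577.5, chr1:133910304-133921414, minus strand), for PRELP, which binds collagen and heparan sulphate, had a CPM of 12.1 (11.1 to 13.3), 21.1 (20.2 to 22.0) and 74.1 (72.8 to 75.4). The E16.5 value includes a whole peak (chr1:133907625-133910558) that reaches over the promoter of the neighbouring leucine-rich gene Optc, of which the E12.5 sum includes 391 bp and the E14.5 sum nothing. Over the same region in every library, Prelp had 31.1, 50.7 and 74.1 CPM, and the log2 ratio of E16.5 over E12.5 was 1.25 in place of 2.61 (2.48 to 2.75) and that of E16.5 over E14.5 0.55 in place of 1.81. Without the Optc promoter it had 11.1, 21.1 and 43.4 CPM, a log2 ratio of 1.96. Both sums were chosen after the values were seen, and Prelp was higher at each later stage in each of them. Per kb of called width, E14.5 was highest in both, with 7.13, 11.2 and 8.0 CPM per kb over the same regions and 4.97, 7.50 and 6.87 without the Optc promoter. An intronic region (chr1:133915628-133919312), whose centre is printed above, had 1.32, 9.64 and 25.1 CPM over a called width of 481, 1373 and 3685 bp, and the promoter region had 5.92, 9.87 and 13.4.

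Fmod (ENSMUSG00000041559.7, chr1:134037254-134048277), for fibromodulin of tendon and cartilage, had a CPM of 34.3 (32.5 to 36.2), 32.1 (31.0 to 33.2) and 34.4 (33.6 to 35.3). Its levels at E12.5 and E16.5 could not be told apart, with a log2 ratio of 0.01 (-0.08 to 0.09). Bgn (ENSMUSG00000031375.17, chrX:73483602-73495933), for biglycan of bone, cartilage and tendon matrix, had 6.89 (6.09 to 7.77), 9.12 (8.56 to 9.71) and 9.06 (8.62 to 9.52) CPM. Its promoter region (2.88, 6.61 and 6.37 CPM) was higher from E14.5 on. Intronic peaks of Bgn at chrX:73486795-73487768 (3.52 CPM) and chrX:73489956-73490648 (2.18 CPM) were called only at E16.5, and with all of its own peaks Bgn had 14.8 CPM at that stage. Bgn is on the X chromosome and the pools held both sexes, in proportions that are not given.

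Step by step, 2 genes (Aspn and Prelp) were 1.5-fold higher at E14.5 than at E12.5, where 7.36% of genes were, and 0 were lower, where 7.4% were. From E14.5 to E16.5, 3 genes (Prelp, Epyc and Dcn) were higher, where 7.3% of genes were, and 0 were lower, where 5.45% were. Of these, Prelp was no longer past 1.5-fold over whole shared regions (0.55) or per kb of called width (0.09, and -0.49 per kb over whole shared regions), though it stayed past it over those regions without the Optc promoter (1.04), and Epyc and Dcn turned to -0.67 and -0.38 per kb. With scaling over all peaks Dcn was at 0.58, just under 1.5-fold, and with peaks of matched position Epyc was at 0.36. The median log2 ratio of the 10 was 0.26 in the earlier step and 0.10 in the later, with all genes at 0.15 and -0.18. Scaled by the counts in all peaks, the later step turned to -0.15 with all genes at -0.43.

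**Figure D2:**
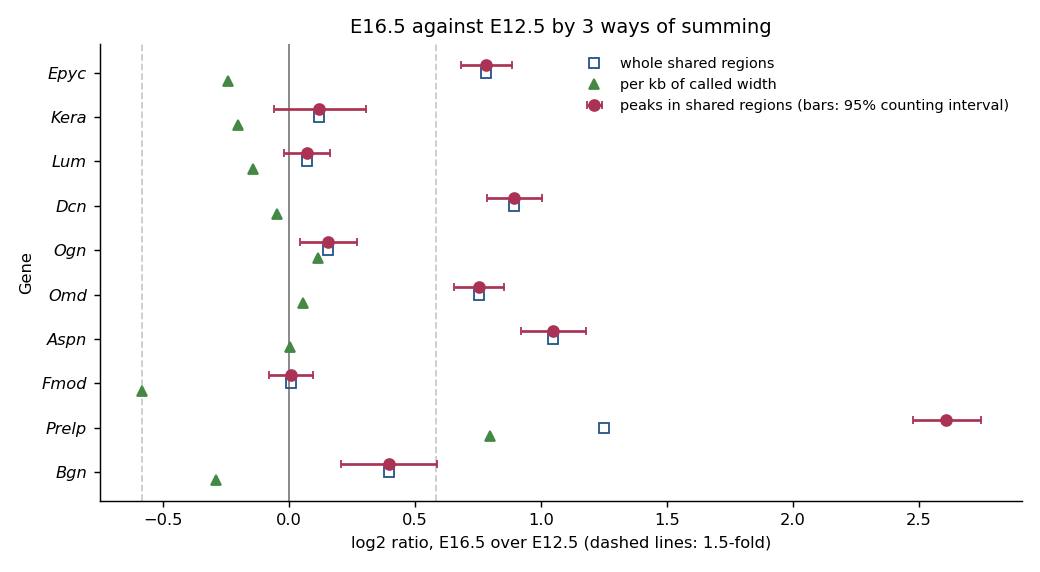
Log2 ratio of E16.5 over E12.5 for each locus with 95% counting intervals, beside the values per kb of called width and over whole shared regions. All 10 sums lie at or above 0, whereas per kb of called width 4 of 10 do so, Fmod is 1.5-fold lower, at -0.59, and Prelp lies at 0.80, a value that counts the Optc promoter whole only at E16.5 (0.17 over the same regions).

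Levels of different genes were compared per kb of called peak in shared regions. At E12.5 the order was Lum (10.8 CPM per kb), Ogn (10.7), Omd (8.80), Dcn (8.37), Fmod (8.08), Epyc (7.18), Aspn (6.55), Bgn (5.20), Kera (4.79) and Prelp (4.61). Counting intervals were clear of each other at only 2 steps of this order, between Ogn and Omd and between Aspn and Bgn. At E16.5 the order was Ogn (11.6), Lum (9.78), Omd (9.15), Dcn (8.10), Prelp (8.0), Aspn (6.57), Epyc (6.06), Fmod (5.39), Bgn (4.26) and Kera (4.16). Here the intervals overlapped only between Dcn and Prelp and between Bgn and Kera. Bgn and Kera were thus low at both stages, while the places of Prelp compare unlike stretches, since the Optc promoter is counted whole only at E16.5.

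To take out depth, each nucleus was thinned to 1000 fragments, and the share with a cut at a gene's own peaks was computed. Thinning evens out depth but not the peaks, which each library has by its own calls (for Dcn 5, 1 and 6). Dcn was open in 1.99% (1.67 to 2.35), 1.98% (1.79 to 2.19) and 3.82% (3.51 to 4.15) of thinned nuclei, where the unthinned shares were 9.12%, 9.63% and 38.7%. Prelp was open in 1.03% (0.803 to 1.30), 2.02% (1.83 to 2.22) and 5.47% (5.10 to 5.86), with 4.70%, 9.81% and 49.3% unthinned, where the E16.5 share includes the Optc promoter peak. Over the same shared regions, a choice made after the values were seen, Dcn was open in 1.49% (1.22 to 1.81), 1.98% (1.79 to 2.19) and 2.79% (2.53 to 3.08) of thinned nuclei. Prelp, without the Optc promoter, was then open in 0.926% (0.711 to 1.19), 2.02% (1.83 to 2.22) and 3.33% (3.04 to 3.64). Within these regions each library still counted its own called width, 2478, 2061 and 4763 bp for Dcn and 2241, 2810 and 6321 bp for Prelp. The part of this width in the shares was not tested. Lum was open in 2.33%, 2.76% and 2.50%, Fmod in 2.93%, 2.90% and 2.77% and Kera in 0.852%, 0.999% and 0.843%. In shared regions alone Kera had 0.657%, 0.999% and 0.686%. There Omd had 1.76%, 3.05% and 3.14% and Aspn 1.15%, 2.95% (2.72 to 3.20) and 2.26% (2.02 to 2.52). Epyc had 1.90%, 2.24% and 3.07%, Ogn 1.51%, 2.02% and 1.69% and Bgn 0.657%, 0.924% and 0.722%. For Lum and Fmod the thinned shares were thus nearly level, while for Lum, Fmod and Kera the unthinned shares were 27.8%, 29.0% and 10.3% in the deeper E16.5 library and at most 14.2% before. Thinning left out 1600, 0 and 57 shallow nuclei.

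To ask in which nuclei the loci were open, nuclei were ranked within a library by their fragments at marker loci relative to their depth, and the top 10% were taken as a gate. Gates were made from chondrogenic (Acan, Col2a1, Col9a1, Col9a3, Matn1, Cnmd, Snorc, Sox9), tenogenic (Tnmd, Thbs4, Scx, Mkx, Htra3, Cilp), fibrogenic (Cd34, Dpt, Pi16, Clec3b, Mfap5, Postn, Fap, Ly6a, Pdpn) and dermal fibrogenic (Irx1, Irx2, Col7a1, Rspo1, Axin2, En1, Lef1, Nkd2, Crabp1, Twist2) loci. An osteogenic gate (Sp7, Ibsp, Bglap, Dmp1, Phex, Alpl) and a housekeeping promoter gate were made in the same way. Ly6a, Ibsp and Bglap had no peak at E12.5 or E14.5. At these stages the fibrogenic gate thus rested on 8 of 9 loci and the osteogenic gate on 4 of 6. No SLRP peak entered a gate. A gate is a range of a score and not a cell type, and at E16.5 from 178 to 502 nuclei lay within 10% of its lower bound. It held 1405 nuclei against 12643 others at E16.5, and the sums below are fragments over all of a gene's own peaks per 1000000 fragments (FPM) of the gate's or the other nuclei. Nuclei of the chondrogenic gate were shallower than the others (median 12612 against 13926 fragments) and those of the dermal fibrogenic gate deeper (17731 against 13243).

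At E16.5 the chondrogenic gate divided the family. Bgn had 28.4 (26.1 to 30.8) FPM in the gate and 10.3 (9.86 to 10.8) in other nuclei, a log2 ratio of 1.46 (1.32 to 1.59) above that of 99.4% of genes. Fmod had 47.1 against 25.2, a log2 ratio of 0.90 (0.80 to 1.0), and Lum 41.9 against 23.4, a log2 ratio of 0.84 (0.73 to 0.94). On the other side, Dcn had 28.2 (26.0 to 30.6) against 43.0 (42.1 to 43.9), a log2 ratio of -0.61 (-0.73 to -0.49), and Epyc, the cartilage proteoglycan, 29.2 against 39.2, a log2 ratio of -0.42 (-0.55 to -0.30). Epyc was also low in the housekeeping gate, at -0.31 (-0.44 to -0.20), so its lower value is not particular to the chondrogenic gate. Bgn, Fmod, Lum and Dcn were at 0.03, 0.04, -0.03 and -0.07 in the housekeeping gate. In the chondrogenic gate Prelp was at 0.48, in a sum that includes the peak over the Optc promoter, and Omd, Kera, Ogn and Aspn lay between 0.10 and -0.28. The 3 genes 1.5-fold higher stood beside 4.67% of all genes and the 1 lower beside 6.09%, and the medians were -0.0044 for the 10 and 0.089 for all genes. With the score taken from thinned nuclei the log2 ratios shrank to 0.86 for Bgn, 0.51 for Fmod, 0.48 for Lum and -0.31 for Dcn, and with the top 5% of nuclei they were 1.71 for Bgn, 1.095 for Fmod, 1.201 for Lum and -0.85 for Dcn. Loci of other cell types, in the gate against the rest, took 58.7 against 60.9 FPM (myogenic), 108 against 131 (endothelial), 47.7 against 68.6 (epithelial) and 47.4 against 45.9 (blood). Their part in the ratios was not tested.

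In the tenogenic gate Kera stood highest, with 15.1 (13.5 to 16.8) FPM against 7.62 (7.23 to 8.02) and a log2 ratio of 0.99 (0.81 to 1.16), above 99.8% of genes. The study itself uses Kera as a mark of its tenogenic cluster of these nuclei, so this value is not independent of that choice. Fmod followed with 38.8 against 26.0, a log2 ratio of 0.58 (0.47 to 0.68), and Aspn, Omd and Ogn had 0.34, 0.30 and 0.24. Lum and Dcn, at 0.01 and 0.01, had intervals that included 0. Thus 1 gene was 1.5-fold higher and 0 lower, beside 0.689% and 2.2% of all genes, and the median was 0.20 for the 10 and -0.02 for all genes. From thinned scores the log2 ratio was 0.49 for Kera and 0.19 for Fmod. The other cell types' loci took 59.1 against 60.9 (myogenic), 130 against 129 (endothelial), 49.8 against 68.6 (epithelial) and 50.1 against 45.5 FPM (blood).

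The dermal fibrogenic gate showed Epyc at 55.5 (52.6 to 58.4) FPM against 35.8 (35.0 to 36.7), a log2 ratio of 0.63 (0.55 to 0.71), with Lum at 0.46 and Dcn at 0.42. Kera had 5.68 against 8.78, a log2 ratio of -0.62 (-0.88 to -0.38), and Fmod and Aspn had -0.45 and -0.40. The 1 gene higher stood beside 3.94% of all genes and the 1 lower beside 7.49%, so the counts of calls were close to those of genes at large. From thinned scores Epyc was at 0.21, Lum at 0.07 and Kera at -0.11. In the fibrogenic gate the 10 lay between -0.43 (Fmod) and 0.22 (Dcn), with 0 higher and 0 lower beside 1.17% and 3.38% of genes. In the osteogenic gate 0 were higher and 0 lower beside 0.262% and 1.25%, and in the housekeeping gate 0 and 0 beside 0.387% and 1.16%. In the dermal fibrogenic gate the loci of other cell types took 68.0 against 59.7 (myogenic), 133 against 128 (endothelial), 51.6 against 68.6 (epithelial) and 56.6 against 44.6 FPM (blood), and their part was not tested.

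**Figure D3:**
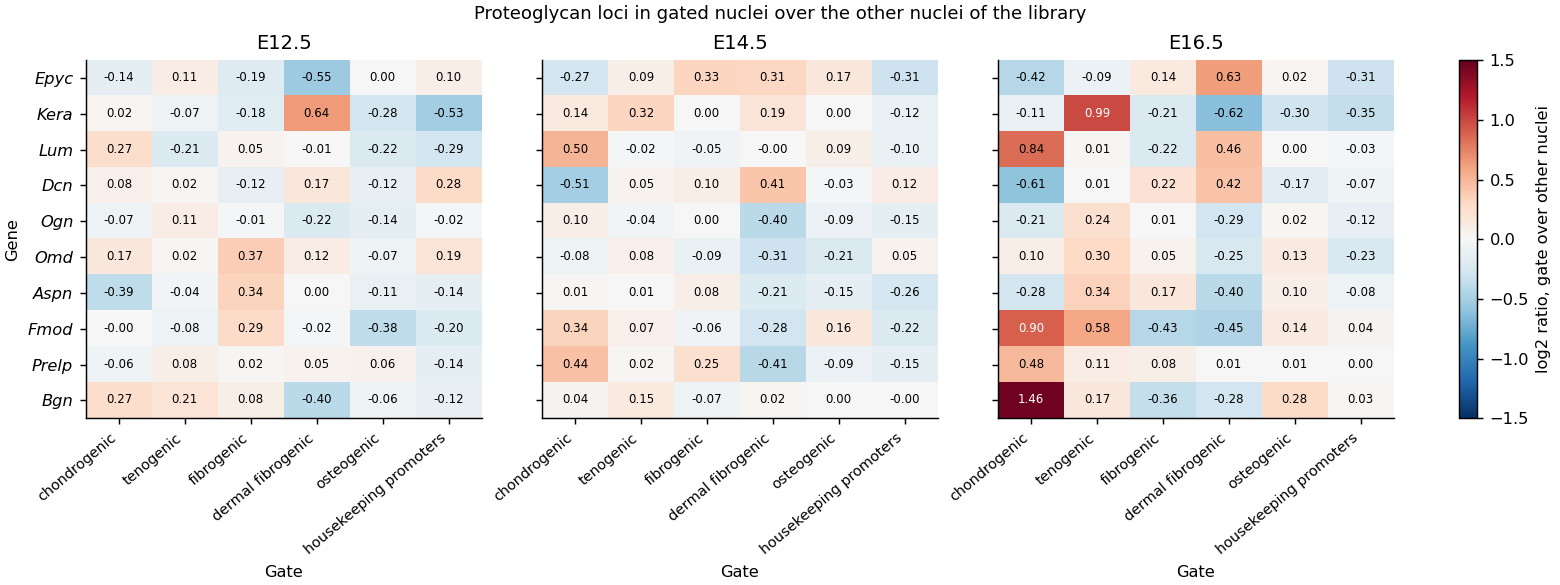
Log2 ratio of each proteoglycan locus in the gated nuclei over the other nuclei of the same library, for 6 gates (x axis) and 3 stages (panels). At E16.5 the chondrogenic column runs from 1.46 for Bgn to -0.61 for Dcn and the tenogenic column peaks at Kera with 0.99, while the dermal fibrogenic column at E12.5 runs from 0.64 for Kera to -0.55 for Epyc.

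In the chondrogenic gate of E14.5, Lum (0.50), Prelp (0.44) and Fmod (0.34) were above 0 and Dcn (-0.51) and Epyc (-0.27) below, with counting intervals clear of 0. The signs for these 5 genes were thus those of E16.5, while Bgn was at 0.04 (-0.27 to 0.33). In the housekeeping gate of E14.5 Epyc was also low, at -0.31 (-0.54 to -0.11). Lum, Prelp, Fmod and Dcn were there at -0.10, -0.15, -0.22 and 0.12, opposite in sign to the chondrogenic gate. Each gate sum covers the library's own peaks. The intronic Bgn peaks called only at E16.5 are thus not in the E14.5 value. In the tenogenic gate of E14.5 Kera was at 0.32 (0.05 to 0.57). At E12.5 no SLRP gene was past 1.5-fold in the chondrogenic (beside 0.535% of genes higher and 1.3% lower), tenogenic (0.361% and 0.829%) or fibrogenic gate (0.439% and 0.643%). Kera, on 74 fragments in the dermal fibrogenic gate, was the 1 gene higher there, beside 0.276% of genes, and 0 were lower, beside 0.727%. In that gate Epyc was at -0.55 (-0.89 to -0.24) at E12.5 and at 0.31 (0.13 to 0.49) at E14.5, opposite in sign to each other. Prelp (-0.41) and Ogn (-0.40) were further from 0 there at E14.5 than at E16.5, but over unlike peaks. At E16.5 the Prelp sum includes the peak over the Optc promoter, and Ogn has 4 peaks where it has 1 at E14.5. Differences between stages were not tested, and the shallower libraries and gates with fewer nuclei at E12.5 give less precise ratios. At E16.5, scores from thinned nuclei also brought the ratios printed for them closer to 0. Gates of libraries that differ in depth are thus not compared on equal terms.

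To see where in each gene the difference lay, the E16.5 peaks were compared between gates 1 by 1. Apart from promoter peaks and the strongest peak of each gene, those named here were chosen after their values were seen. Of 39 SLRP peaks with at least 100 fragments, 9 were 1.5-fold higher in the chondrogenic gate (12.9% of all peaks) and 9 lower (39.1%). Of the 9 higher, 1 small Aspn peak reached the minimum only with its fragments in the gate (48, with 82 outside). In the tenogenic gate 5 were higher (8.07%) and 1 lower (14.2%), and in the dermal fibrogenic gate 3 were higher (17.4%) and 16 lower (36.9%). The dermal share of lower peaks was thus near that of peaks at large. The median log2 ratio of all peaks was -0.34 in the chondrogenic, -0.07 in the tenogenic and -0.28 in the dermal fibrogenic gate. For the SLRP peaks it was -0.05, 0.17 and -0.35. Ratios of single peaks below stand beside these medians.

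Bgn differed in its introns, not at its promoter. The intronic peak at chrX:73486795-73487768, printed above, had 15.0 FPM in the chondrogenic gate and 1.59 in other nuclei, a log2 ratio of 3.24 (3.01 to 3.47), and the one at chrX:73489956-73490648 had 6.33 against 1.28, a log2 ratio of 2.31 (1.99 to 2.62). Over the alternatives these ran from 1.96 to 3.37 and from 1.60 to 2.37. The Bgn promoter peak had a log2 ratio of -0.27 (-0.61 to 0.03). Both intronic peaks were among the 12 called at E16.5 alone. Fmod differed at its promoter, with 31.9 against 14.1 FPM in the chondrogenic gate (log2 ratio 1.18, 1.05 to 1.30) and 26.5 against 14.6 in the tenogenic gate (0.86, 0.73 to 0.99). The Lum promoter (0.84) and the Prelp promoter and intron (0.78 and 0.75) were likewise higher in the chondrogenic gate.

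Epyc was split within the gene. The peak over its second start had 9.79 against 5.82 FPM in the chondrogenic gate of E16.5, a log2 ratio of 0.75 (0.53 to 0.97). Its intronic peak at chr10:97668158-97669252 had 6.53 against 14.7, a log2 ratio of -1.17 (-1.43 to -0.92), and the peak upstream of the gene (chr10:97641808-97642512) had -1.23 (-1.82 to -0.74). The peak just after its first start (chr10:97644198-97645151) had -1.43 (-2.26 to -0.78). At E14.5 the exonic peak beside the second start (chr10:97647357-97647620) had 1.89 (1.43 to 2.33) and the intronic peak -0.84 (-1.18 to -0.53). In the dermal fibrogenic gate the upstream peak had 10.9 against 2.38 FPM, a log2 ratio of 2.19 (1.97 to 2.41), and the intronic peak 0.64 (0.50 to 0.78). So within Epyc the second start was more open in the chondrogenic gate while the upstream, first-start and distal intronic peaks were less open. With thinned scores or other settings the upstream ratio in the dermal fibrogenic gate ran from 0.77 to 2.38.

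The Dcn promoter had 18.2 against 31.6 FPM in the chondrogenic gate (log2 ratio -0.79, -0.95 to -0.65) and 45.1 against 28.3 in the dermal fibrogenic gate (0.68, 0.58 to 0.77). In the tenogenic gate an intronic Dcn peak (chr10:97497641-97498423) had 5.98 against 1.96 FPM, a log2 ratio of 1.61 (1.31 to 1.89), although the sum over the gene was 41.7 against 41.6. Over the alternatives this peak ran from 0.34 to 1.83. Another Dcn intronic peak (chr10:97516372-97517122) was higher in the fibrogenic gate, at 0.92 (0.64 to 1.19). For Kera, the intronic peak printed above (chr10:97611403-97612133) had 3.94 against 1.17 FPM in the tenogenic gate, a log2 ratio of 1.76 (1.38 to 2.11), and the exonic peak (chr10:97608122-97609083) 8.20 against 4.17, a log2 ratio of 0.98 (0.74 to 1.21). The former ran from 0.83 to 2.10 over the alternatives.

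**Figure D4:**
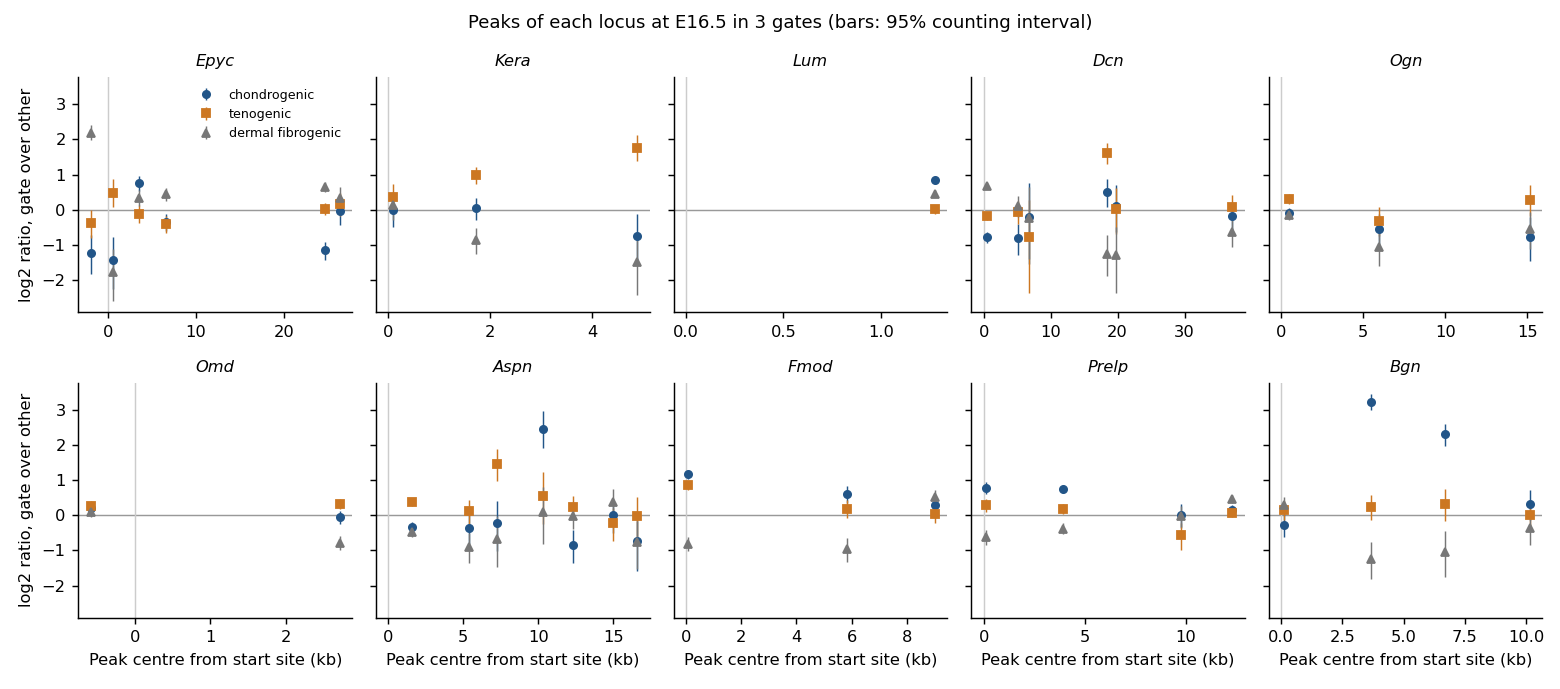
Log2 ratio of each E16.5 peak of the 10 loci in the chondrogenic, tenogenic and dermal fibrogenic gates over the other nuclei, by the distance of the peak's centre from the start site (kb, vertical line at 0), with bars for the 95% counting interval. The highest chondrogenic value is a Bgn intronic peak at 3.24, and the Epyc peaks fall on both sides of 0.

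To see whether neighbouring genes opened in the same nuclei, the number of nuclei with a cut at both genes of a pair was divided by the number expected if they were independent within 20 strata of depth. For the 6 pairs of the chromosome 10 cluster the median of this co-opening ratio was 1.196, 1.15 and 1.07. For the 3 pairs of the chromosome 13 cluster it was 1.26, 1.18 and 1.08, and for Fmod and Prelp, which share chromosome 1, it was 1.11, 1.09 and 1.04. For the 35 pairs on different chromosomes it was 1.02, 1.02 and 1.03. All 3 pairs of Ogn, Omd and Aspn had intervals above 1 in every library, the highest at E12.5 being Ogn and Omd with 1.27 (1.09 to 1.48; 172 nuclei, 135 expected). Within the chromosome 10 cluster, Epyc and Dcn stood at 1.32 (1.15 to 1.52), 1.34 (1.21 to 1.49) and 1.07 (1.03 to 1.11). The intervals of Lum and Dcn, and those of Kera and Dcn, included 1 in every library. The libraries differ in depth, so their ratios are not a comparison of stages at equal depth. In nuclei thinned to 1000 fragments, without strata, the medians were 1.55, 1.23 and 1.11 on chromosome 10, 1.59, 1.17 and 1.17 on chromosome 13, and 0.938, 1.01 and 1.02 for pairs on different chromosomes.

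At E16.5 some pairs on different chromosomes had higher ratios than any pair of neighbours. Kera and Fmod had 1.15 (1.07 to 1.25), Kera and Bgn 1.15 (1.03 to 1.28), Kera and Ogn 1.13 (1.04 to 1.22) and Kera and Aspn 1.12 (1.04 to 1.21). Lum and Bgn had 1.10 (1.03 to 1.18). The lowest pairs were Epyc and Bgn at 0.94 (0.88 to 1.005) and Epyc and Fmod at 0.95 (0.91 to 0.997). In all, 10 of the 35 had an interval above 1 in this library, where 2 had one at E14.5 and 0 at E12.5. Of the 6 pairs of the chromosome 10 cluster, 2 had one at E16.5, 4 at E14.5 and 2 at E12.5. Pairs of an SLRP gene and a housekeeping promoter had a median of 1.01, 0.988 and 0.997. In thinned nuclei of E16.5, Kera and Fmod (1.55) and Lum and Bgn (1.45) stayed above the highest neighbours, Omd and Aspn (1.26). Kera and Bgn (1.12), Kera and Ogn (1.15) and Kera and Aspn (1.12) did not.

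**Figure D5:**
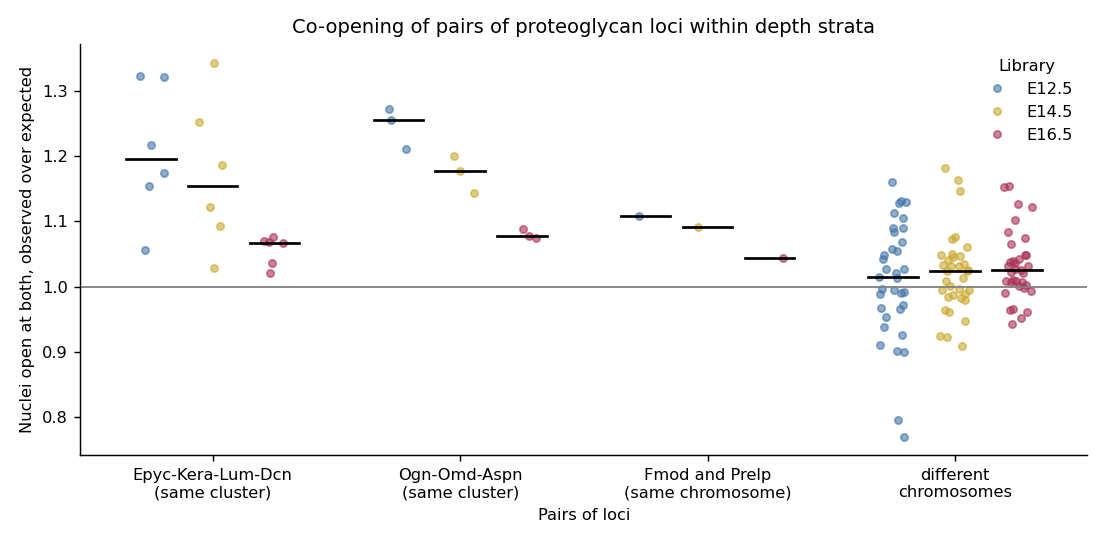
Co-opening ratio of pairs of proteoglycan loci, observed over expected nuclei within strata of depth, for neighbours in the 2 clusters, for Fmod with Prelp and for pairs on different chromosomes, in each library. The points of neighbours lie above 1 in every library, though the counting intervals of some chromosome 10 pairs include 1. The gap to pairs on different chromosomes (medians 1.02, 1.02 and 1.03) is widest at E12.5, with the bars marking medians.

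Other genes of the pathway were compared from E12.5 to E16.5 on the same CPM scale, on which 7.34% of all genes were 1.5-fold higher and 8.64% lower. Of 7 other leucine-rich family genes, 2 were 1.5-fold higher (Nyx, log2 ratio 0.99, and Chad, 0.76) and 2 lower (Podnl1, -0.70, and Ecm2, -0.69). Per kb of called width Nyx had 0.85, while Chad (0.04), Podnl1 (-0.57) and Ecm2 (-0.47) were no longer past 1.5-fold. With peaks of matched position Nyx (2.22), Podnl1 (-1.49) and Ecm2 (-0.67) stayed past it, and Chad had no such peak. Optc (0.39), Tsku (0.30) and Podn (-0.49) lay between. All 17 genes of glycosaminoglycan assembly stayed within 1.5-fold, with a median of 0.06. B3gat3, which completes the linkage sugar chain, had 0.47, Xylt1, which starts it, 0.42 and Chsy1, a chondroitin synthase, 0.34. B4galt4 and Chst1, of keratan sulphate synthesis, had -0.33 and -0.33, and Dse, the dermatan sulphate epimerase, -0.28. Of 10 matrix partners, 4 were higher, namely Col3a1 (1.49), Col6a1 (0.73), Col1a1 (0.71) and Tgfb1 (0.66), and 0 lower, with a median of 0.50. Per kb of called width these 4 had 0.04, -0.03, 0.15 and 0.07, so none of the calls was kept. Only Tgfb1 of these 4 had peaks of matched position, with 0.51. The lowest were Tgfb3 (-0.32), Tgfb2 (0.22) and Col1a2 (0.26).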

How the data were processed

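The authors deposited raw counts, that is whole numbers of cut sites for each nucleus in each peak of its library, from sorted forelimb MPs of 3 stages. The labels name Cell Ranger ATAC 1.1.0 and mm10, whereas the file headers give 1.0.1 for the earlier libraries and 1.2.0 for E16.5. Peaks were called per library, and the lists hold no scores. All 42365 nuclei were kept, and no doublet caller was run.

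Gene spans and starts were taken from the GENCODE basic annotation of GRCm38, and promoter sequences from RefSeq. Peaks that overlapped between libraries were joined, and joined regions that held a peak of each library were called shared. Counts of a gene were summed over its peaks in shared regions and divided by the autosomal total. A fragment is a cut-site count divided by 2 and rounded up, and intervals (95%) were computed on fragments. Gates used a pseudocount of 0.5 fragments and genes or peaks with at least 100 fragments. The calculations used Python 3.11.15, numpy 2.4.6, scipy 1.17.1 and pandas 2.3.3, and were tested on simulated data.

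The genes, lists and comparisons were chosen with earlier results of these data known. All 10 genes are named, with each gene's strongest peak per library and its promoter peaks, all family genes, and the 3 highest and 3 lowest of the other lists. For each stage comparison, 10 alternatives were tried, besides 4 added after seeing the data, 3 of them for Prelp alone, and 3 to 5 for each gate and co-opening value. A further list of marker loci is not reported here.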

Additional observations from a re-analysis of the deposited data

Results flagged for a closer look

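Kera differed in direction between stages in the dermal fibrogenic gate. Its log2 ratio over the other nuclei was 0.64 (0.25 to 1.01) at E12.5, on 74 fragments in the gate and 315 outside, and -0.62 (-0.88 to -0.38) at E16.5, on 145 and 1646. At E14.5 it was 0.19 (-0.09 to 0.45). Each stage is 1 library, so the difference was not tested. At E16.5 the value was -0.11 when the score came from thinned nuclei. In the housekeeping gate Kera also lay away from 0, at -0.53 (-1.10 to -0.04) at E12.5 and -0.35 (-0.62 to -0.10) at E16.5. It was at -0.12 (-0.43 to 0.17) there at E14.5. Epyc turned the other way from Kera in the dermal fibrogenic gate, from -0.55 (-0.89 to -0.24) at E12.5 to 0.63 (0.55 to 0.71) at E16.5. The Epyc sums cover unlike peaks, since its upstream and first-start peaks were called only at E16.5. Its E16.5 value was also lower, though above 0, when the score came from thinned nuclei. With counting intervals clear of 0 on both sides, Fmod was at 0.29 (E12.5) and -0.43 (E16.5) in the fibrogenic gate and at -0.38 and 0.14 in the osteogenic gate, and Omd at -0.21 (E14.5) and 0.13 (E16.5) in the osteogenic gate. These differences were not tested either, and each sum covers the library's own peaks. The fibrogenic and osteogenic gates also rested on fewer loci at E12.5 and E14.5 than at E16.5.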

How the results depend on the processing

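No paired analysis was possible because each stage is 1 library and no result comes from a test. Of the alternatives tried for the medians and peak counts, 47 planned and 3 added ones left the value within set bounds and 18 planned ones did not. The bounds were the median lower and the median upper counting limit of the single genes or pairs (counts: within 1.5 times). They are not an interval of the median itself. Within them the E14.5 over E12.5 median of 0.26 still moved to 0.12 with peaks of matched position and 0.15 with promoter peaks. The E14.5 over E12.5 median of 0.26 became 0.44 scaled by all peaks, 0.11 scaled by the median gene, 0.057 with all own peaks and 0.42 per kb. The E16.5 over E14.5 median of 0.10 became -0.15 scaled by all peaks, 0.28 scaled by the median gene, 0.42 with all own peaks, -0.61 per kb and 0.18 with the longer reach. The E16.5 over E12.5 median of 0.57 became 0.85 with all own peaks, 0.18 with peaks of matched position (8 genes), -0.10 per kb and 0.77 with the longer reach. Per kb, Epyc and Dcn turned to -0.67 and -0.38 (E16.5 over E14.5) and to -0.24 and -0.049 (E16.5 over E12.5). Over whole shared regions per kb, Prelp turned to -0.49 (E16.5 over E14.5), and to -0.13 without the Optc promoter. At E12.5, 21 of 35 peaks had a count in at least 1% of nuclei. The median in the chondrogenic gate became -0.21 with the top 5%. From thinned scores the medians became 0.046 (tenogenic) and -0.084 (dermal fibrogenic), and thinned nuclei gave a co-opening median of 1.17 on chromosome 13. The cause of these moves was not tested, beyond the change that each alternative makes by its construction. Among genes at or above the median accessibility, from 2% to 4.85% were past 1.5-fold in a step. Every SLRP gene lay below the median gene at E12.5 and E14.5, so these more accessible genes are not like them in level. From E12.5 to E16.5, 4.85% of the more accessible genes and 7.34% of all genes were 1.5-fold higher. Of 501 alternative values for single genes 437 kept their direction, as did 137 of 143 whose reported value was past 1.5-fold, of which 117 stayed past it. Depth limits Kera and Bgn most, with 300 and 267 fragments at E12.5.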
